A study of Mus musculus with 36 samples.

Results

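The step from the middle to the end of the light phase was examined in mouse liver, as the difference in transcript levels between zeitgeber time (ZT) 10 and ZT6, where ZT counts hours from lights on under a 12-h light and 12-h dark cycle. The comparison used 12 of the 36 RNA sequencing libraries of the series, 6 from mice culled at ZT6 and 6 from mice culled at ZT10, chosen by the sampling time in the labels. Each time held 3 control mice and 3 knockout mice. The controls, called THRB WT, were heterozygous for the thyroid hormone receptor beta gene (THRB+/-), so they carried 1 altered allele, and the knockouts, called THRB KO, were homozygous (THRB-/-). The altered allele impairs DNA binding by the receptor in the whole animal. All mice were bred on the C57Bl/6NCrl background. They were males of 2 to 3 months, group-housed at 22 °C with chow and water freely available, and were killed by cervical dislocation. Each library came from 1 liver, and the labels give the mice of a group the letters a, b and c. Polyadenylated RNA was sequenced without strand information, and the 12 libraries held between 29279652 and 39913574 counts. Levels are given as CPM, counts scaled to library size, with TMM factors. Thrb itself was at 24.3-38.5 CPM in the 6 THRB WT livers and at 27.6-37.7 CPM in the 6 THRB KO livers. Counts are summed over the whole gene, so they do not check the altered exons or the labels. In whole liver, fewer cells of a type and less RNA per cell cannot be told apart.

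The mammalian clock is a loop of transcription and translation. BMAL1 (gene Arntl) and CLOCK bind E-boxes and switch on the period, cryptochrome and REV-ERB genes, whose proteins then restrain their own transcription. REV-ERB proteins repress, and ROR proteins activate, genes with RORE elements such as Arntl, and the PAR bZIP factors DBP, TEF and HLF act on D-boxes. In liver the loop drives a large part of glucose, lipid, heme and drug metabolism. Mice rest and eat little in the light phase, and begin to feed as darkness approaches.

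Of 17994 genes tested, 1000 passed an adjusted p of 0.05 in edgeR's quasi-likelihood test with genotype as covariate and Benjamini-Hochberg adjustment, which was 5.56% of all genes. Of these, 492 (2.73%) were higher at ZT10 and 508 (2.82%) were lower. The calls in each gene list below are to be read against these shares. Changes were mostly small. The called genes had a median absolute log2 fold change of 0.53, and 108 of the higher and 87 of the lower genes changed by at least 2-fold. The median log2 fold change over all tested genes was -0.000361. Mice that shared a sampling time and a letter deviated together across the 2 genotypes, so the 6 libraries of a time may be worth fewer than 6 independent livers. In 3 alternatives chosen after the data had been seen, the count was 402 with each such pair summed (391 of them among the 1000), 642 with limma voom and an estimated correlation within pairs, and 538 without both ZT6 mice of letter b. The mouse numbers in the labels fall into series, and the highest series held 4 of the 6 ZT6 mice and 2 of the 6 ZT10 mice. With series as a covariate 824 genes were called, and within the highest series alone 233 and within the lower numbers 181.

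**Figure D1:**
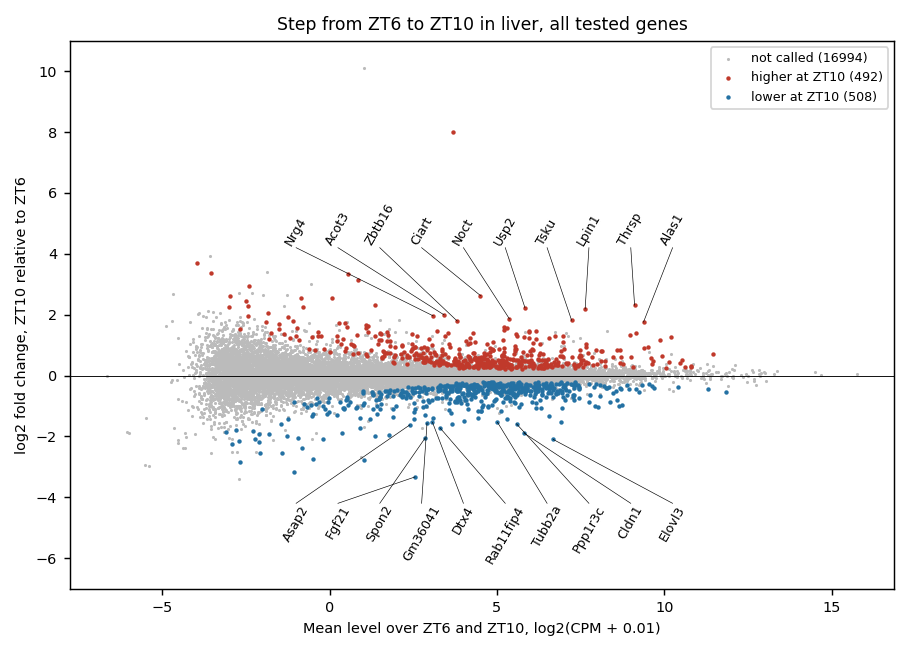
Log2 fold change from ZT6 to ZT10 (vertical axis) against the mean level on a log2 scale (horizontal axis) for 17994 genes, 1 point a gene. Genes higher at ZT10 (492) are red and genes lower at ZT10 (508) are blue, and the names mark the 10 genes of each direction with the largest changes under the rule for named genes; the red point at a log2 fold change of 8.01 is Gm43305, high in 3 of the 6 ZT10 livers.

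Of 8 genes of the repressing limb of the clock, 5 were called higher at ZT10 (62.5%, against 2.73% of all tested genes) and 0 lower. The list's median log2 fold change was 1.08. Ciart, which encodes a repressor of BMAL1 and CLOCK, had lowest, median and highest levels of 1.64, 5.18 and 14.6 CPM in the 6 livers of ZT6 and 29.96, 38.3 and 51.00 CPM in the 6 livers of ZT10. It rose 6.18-fold (log2 fold change 2.63 ± 0.42 SE, adjusted p = 0.00188), the largest increase among the genes named by size. The groups did not overlap, and the ZT6 livers were far more unequal among themselves than the ZT10 livers. Per2, a core period gene, moved from 12.9, 17.03 and 26.8 CPM to 46.9, 55.7 and 61.5 CPM, a 3.02-fold increase (log2 fold change 1.60 ± 0.15 SE, adjusted p = 6.61e-05). Per3, its relative, moved from 9.83, 16.04 and 33.4 CPM to 46.4, 54.01 and 60.8 CPM, a 2.79-fold increase (log2 fold change 1.48 ± 0.23 SE, adjusted p = 0.00168). In both, each ZT10 liver lay above each ZT6 liver.

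Per1, the period gene that also answers acutely to light and glucocorticoids, differed widely between livers. Its levels were 9.36, 31.7 and 63.1 CPM at ZT6 and 58.8, 93.8 and 131 CPM at ZT10 (log2 fold change 1.46 ± 0.38 SE, adjusted p = 0.0397), and the groups overlapped. At ZT6 the letter b mouse of either genotype was the lowest, at 9.36 CPM in THRB WT and 11.8 CPM in THRB KO, while the other 4 livers held between 27.7 and 63.1 CPM. The same mice were the lowest at ZT6 for Ciart, with 1.64 and 1.85 CPM. The call for Per1 was lost in 7 of the 12 fits that left out 1 library (adjusted p up to 0.0877) and with pairs of letters summed (adjusted p = 0.181), and without both letter b mice it held (adjusted p = 0.031). Cry1, a cryptochrome whose transcript follows the period genes by several hours, rose from 5.07, 6.89 and 7.79 CPM to 8.85, 10.6 and 14.5 CPM (log2 fold change 0.71 ± 0.14 SE, adjusted p = 0.00629), with no overlap. Cry2 (log2 fold change 0.29, adjusted p = 0.107), Bhlhe40 (0.15, adjusted p = 0.72) and Bhlhe41 (-0.59, adjusted p = 0.337), which encode a second cryptochrome and the DEC repressors, did not pass the test.

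Of 3 activators of the clock, 2 were lower at ZT10. Arntl fell from 2.57, 3.76 and 6.74 CPM (lowest, median and highest) at ZT6 to 0.621, 0.961 and 1.57 CPM at ZT10, 3.95-fold (log2 fold change -1.98 ± 0.28 SE, adjusted p = 0.000766). Clock fell from 25.8, 28.8 and 35.5 CPM to 8.97, 13.5 and 15.7 CPM, 2.23-fold (log2 fold change -1.15 ± 0.12 SE, adjusted p = 0.000129). Both were apart in every liver, and both were at their lowest mean of the 6 sampling times at ZT10. Npas2, a paralog of Clock, was scarce, at 0.211, 0.389 and 1.34 CPM and 0.0621, 0.158 and 0.299 CPM, and its log2 fold change of -1.79 did not pass the test (adjusted p = 0.0793).

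In the RORE limb, Nr1d1, encoding the repressor REV-ERB alpha, fell from 139, 167 and 187 CPM to 47.2, 79.7 and 120.2 CPM (log2 fold change -1.06 ± 0.20 SE, adjusted p = 0.0059). The groups did not overlap. Nr1d2, its close relative (0.19, adjusted p = 0.384), and Rora (0.25, adjusted p = 0.173) did not pass, so the REV-ERB genes were not seen to fall together in this step. Among the PAR bZIP factors, Tef rose from 123, 164 and 244 CPM to 279, 323 and 344 CPM (log2 fold change 0.85 ± 0.14 SE, adjusted p = 0.00193) without overlap. Dbp (0.44, adjusted p = 0.24), Hlf (0.23, adjusted p = 0.334) and the D-box repressor Nfil3 (-0.27, adjusted p = 0.0884) did not pass. The end of Nr1d1 overlaps Thra by 1075 bases and Dbp overlaps Sphk2 by 737 bases, each pair on opposite strands, and reads from such stretches cannot be told apart here. Thra had a log2 fold change of -0.57 and Sphk2 of -0.63. Of 7 kinases and ligases that modify clock proteins, 1 was called, Fbxl21, at a log2 fold change of -0.47 (adjusted p = 0.0327, lost in 8 of 12 fits without 1 library, at up to 0.0861).

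**Figure D2:**
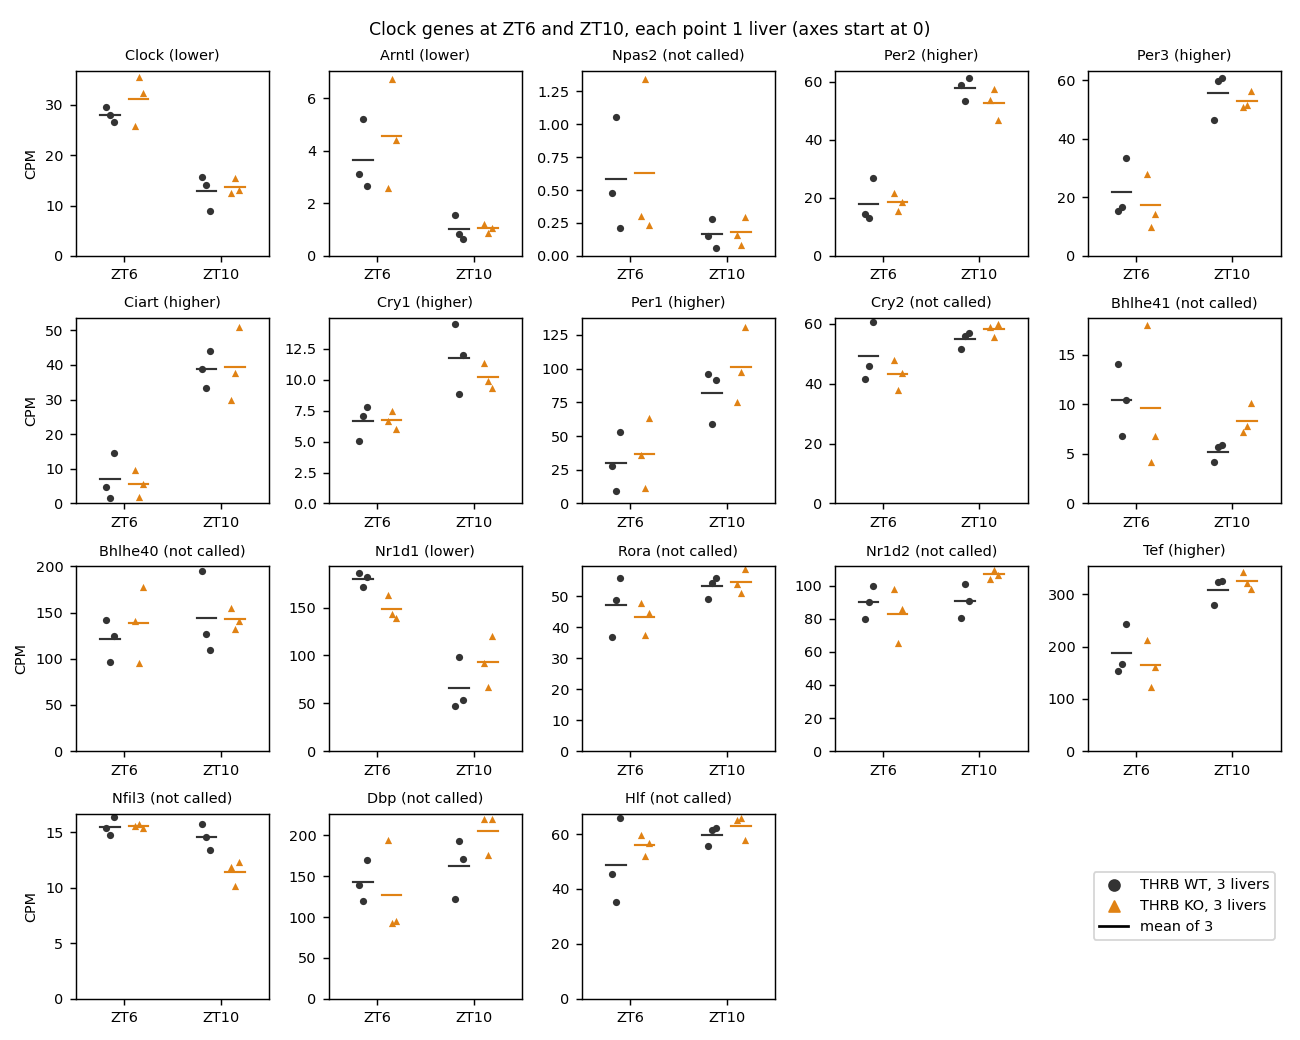
Levels in CPM (vertical axes, from 0) of 18 clock genes at ZT6 and ZT10, 1 point a liver, circles for THRB WT and triangles for THRB KO, with a line at the mean of 3. For Arntl, Clock and Nr1d1 each ZT10 point lies below each ZT6 point, for Per2, Per3, Ciart, Cry1 and Tef above, and Nr1d2 stays between 65.4 and 109.7 CPM.

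Promoters of 5 of these genes are shown, picked because they hold elements through which the loop is known to run. They are RefSeq windows of the GRCm38.p6 assembly from 250 bases before to 50 bases after a transcript start, written 5′ to 3′ on the gene's strand, with capitals for matches to the E-box CACGTG, the D-box forms TTATGTAA and TTACGTAA, the RORE core TAGGTCA and the CRE TGACGTCA on either strand. Ciart lies at chr3:95882179-95882478 (- strand), Per1 at chr11:69098699-69098998 (+), Cry1 at chr10:85185005-85185304 (-), Per3 at chr4:151044616-151044915 (-) and the second listed start of Arntl at chr7:113207261-113207560 (+).
Ciart: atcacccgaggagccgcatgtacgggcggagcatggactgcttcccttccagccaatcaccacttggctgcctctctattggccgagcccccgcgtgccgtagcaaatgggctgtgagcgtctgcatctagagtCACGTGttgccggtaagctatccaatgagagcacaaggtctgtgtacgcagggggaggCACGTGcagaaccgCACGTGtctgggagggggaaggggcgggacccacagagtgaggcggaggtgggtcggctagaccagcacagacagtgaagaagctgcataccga
Per1: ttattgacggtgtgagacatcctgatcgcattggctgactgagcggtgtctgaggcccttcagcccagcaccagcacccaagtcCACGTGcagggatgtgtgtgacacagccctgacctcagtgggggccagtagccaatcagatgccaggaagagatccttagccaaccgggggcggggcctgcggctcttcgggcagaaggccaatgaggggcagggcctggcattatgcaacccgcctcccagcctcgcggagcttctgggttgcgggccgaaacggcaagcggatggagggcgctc
Cry1: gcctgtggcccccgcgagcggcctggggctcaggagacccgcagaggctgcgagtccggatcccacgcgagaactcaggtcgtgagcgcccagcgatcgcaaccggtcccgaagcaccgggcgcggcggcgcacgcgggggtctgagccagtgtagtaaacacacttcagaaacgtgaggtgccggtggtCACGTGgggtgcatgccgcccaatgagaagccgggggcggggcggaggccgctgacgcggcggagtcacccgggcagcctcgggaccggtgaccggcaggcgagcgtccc
Per3: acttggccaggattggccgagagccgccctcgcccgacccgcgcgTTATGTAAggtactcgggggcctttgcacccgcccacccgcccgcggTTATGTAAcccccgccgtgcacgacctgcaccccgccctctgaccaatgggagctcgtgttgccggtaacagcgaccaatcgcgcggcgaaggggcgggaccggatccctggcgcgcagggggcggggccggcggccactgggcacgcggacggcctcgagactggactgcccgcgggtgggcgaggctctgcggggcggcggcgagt
Arntl: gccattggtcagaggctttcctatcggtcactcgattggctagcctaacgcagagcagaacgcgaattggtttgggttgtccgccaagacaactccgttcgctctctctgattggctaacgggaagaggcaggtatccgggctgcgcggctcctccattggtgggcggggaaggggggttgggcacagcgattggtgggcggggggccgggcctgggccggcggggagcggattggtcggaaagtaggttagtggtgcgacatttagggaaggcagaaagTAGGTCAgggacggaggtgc
The Ciart window held 3 E-boxes, Per1 and Cry1 held 1 E-box each, Per3 held 2 D-boxes of the first form, and Arntl held 1 RORE core. No match was found in the windows of Clock, Nr1d1, Nr1d2, Cry2, Dbp, Npas2 and Rora or at the other listed starts of Per1 and Arntl. Tef, called higher, held an E-box. Bhlhe41, Nfil3 and Hlf, which were not called, held an E-box, a RORE core and a CRE in that order. Among genes with a window, an E-box was found in 67 of 361 genes (18.6%) that were higher at ZT10, in 44 of 375 (11.7%) that were lower, and in 1324 of 11992 tested genes (11%). The D-box form TTATGTAA was found in 10 of the 361 higher genes (2.77%), 4 of the 375 lower genes (1.07%) and 94 tested genes (0.784%), and TTACGTAA in 5 (1.39%), 0 and 18 (0.15%). The RORE core was found in 3.05% of the higher, 3.47% of the lower and 2.51% of the tested genes, and the CRE in 3.05%, 2.4% and 3.29%. Over all 32851 windows in the table, 7.15% held the E-box, 0.938% and 0.119% the D-box forms, 2.61% the RORE core and 1.79% the CRE. These shares describe letters in a short window and were not tested, and a match is no evidence of binding.

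Outside the clock lists, Thrsp, a thyroid hormone and carbohydrate responsive gene of fat synthesis, had 83.98, 197 and 257 CPM at ZT6 and 316, 764 and 2029 CPM at ZT10, a 4.97-fold increase (log2 fold change 2.31 ± 0.39 SE, adjusted p = 0.00279). Usp2, a deubiquitinase under clock control, rose from 6.77, 14.9 and 37.2 CPM to 83.6, 96.3 and 100.2 CPM (log2 fold change 2.23 ± 0.33 SE, adjusted p = 0.00106). Lpin1, a phosphatidate phosphatase and coactivator of fat oxidation, rose from 41.7, 64.3 and 131 CPM to 240.1, 295 and 469 CPM (log2 fold change 2.19 ± 0.28 SE, adjusted p = 0.000447). None of the 3 overlapped between times, and Thrsp spread most widely at ZT10. The rule that named the genes of largest change already required no overlap within either genotype, so their separation adds no support. Of the 1000 called genes, 623 had this separation within both genotypes and a mean of at least 5 CPM.

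Nrg4, a growth factor of the EGF family, rose from 2.57, 3.43 and 5.05 CPM to 10.2, 12.1 and 20.6 CPM (log2 fold change 1.96 ± 0.21 SE, adjusted p = 0.000155), and Tsku, a secreted protein of the liver, from 15.1, 67.3 and 107 CPM to 175, 231 and 315 CPM (log2 fold change 1.81 ± 0.31 SE, adjusted p = 0.00345). Alas1, the first enzyme of heme synthesis, was at 148, 186 and 641 CPM and 699.5, 1045 and 1436 CPM (log2 fold change 1.76 ± 0.38 SE, adjusted p = 0.0143). These 3 did not overlap either. At ZT6, Alas1 was high in the letter a mice, at 525 CPM in THRB WT and 641 CPM in THRB KO, against at most 221 CPM in the other 4. With the pairs of letters summed, Alas1 missed the threshold (adjusted p = 0.113).

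The other named increases overlapped by at least 1 liver when the genotypes were pooled. Acot3, a peroxisomal acyl-CoA thioesterase, went from 1.23, 3.76 and 9.06 CPM to 6.77, 16.3 and 29.99 CPM (log2 fold change 1.99 ± 0.41 SE, adjusted p = 0.0108). Noct, the deadenylase-related nocturnin, went from 5.82, 19.01 and 34.6 CPM to 30.6, 58.03 and 122 CPM (log2 fold change 1.86 ± 0.42 SE, adjusted p = 0.017). Zbtb16, a zinc-finger regulator, went from 3.05, 5.75 and 9.81 CPM to 8.54, 18.6 and 41.7 CPM (log2 fold change 1.79 ± 0.36 SE, adjusted p = 0.00943). Within each genotype all 3 stood apart, as the rule required. Noct missed the threshold with pairs of letters summed (adjusted p = 0.0639), and Zbtb16 with voom (adjusted p = 0.0666). Outside the rule and chosen after their values were seen, Slc2a4, the insulin-regulated glucose transporter GLUT4, was scarce but higher at ZT10, from 0.0685, 0.234 and 0.448 CPM to 0.528, 1.99 and 6.14 CPM (log2 fold change 3.34 ± 0.59 SE, adjusted p = 0.00398), and the noncoding Gm43305 had 109, 22.02 and 22.4 CPM in 3 ZT10 livers and at most 0.217 CPM in the other 9 of the 12.

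Among the 10 decreases named by size, Fgf21, the fasting hormone of the liver, fell from 2.13, 7.31 and 30.8 CPM to 0.283, 0.746 and 2.87 CPM, 10.1-fold (log2 fold change -3.33 ± 0.69 SE, adjusted p = 0.0103). Its highest ZT6 level came from THRB WT mouse b, and the groups overlapped when the genotypes were pooled. It missed the threshold with voom (adjusted p = 0.12) and with summed pairs (adjusted p = 0.0564). Elovl3, an elongase of very long fatty acids, fell from 75.6, 159 and 277 CPM to 22.6, 35.6 and 71.9 CPM (log2 fold change -2.10 ± 0.30 SE, adjusted p = 0.000829). Cldn1, a claudin of tight junctions, fell from 69.4, 88.1 and 106 CPM to 18.04, 24.8 and 30.3 CPM, 3.72-fold (log2 fold change -1.89 ± 0.12 SE, adjusted p = 7.5e-06), the smallest adjusted p among the named genes. Elovl3 and Cldn1 did not overlap.

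Spon2, a secreted matrix protein, fell from 8.07, 11.7 and 15.7 CPM to 1.27, 3.01 and 3.51 CPM (log2 fold change -2.05 ± 0.22 SE, adjusted p = 0.000135). Rab11fip4, an effector of RAB11 in vesicle recycling, fell from 12.2, 14.4 and 19.1 CPM to 3.04, 4.77 and 5.55 CPM (log2 fold change -1.72 ± 0.15 SE, adjusted p = 6.09e-05). Ppp1r3c, which targets protein phosphatase 1 to glycogen, fell from 43.02, 74.2 and 93.6 CPM to 16.1, 24.95 and 32.9 CPM (log2 fold change -1.59 ± 0.21 SE, adjusted p = 0.000467). In all 3 each ZT10 liver lay below each ZT6 liver, where the rule required this within each genotype. The same held for Asap2, an ARF GTPase activator (log2 fold change -1.63), Dtx4, a ubiquitin ligase of the Deltex family (-1.54), Tubb2a, a beta tubulin (-1.54) and the predicted gene Gm36041 (-1.57), with adjusted p between 4.29e-05 and 0.00107. Asap2 overlaps the more abundant Itgb1bp1 by 29347 bases on the opposite strand, and Itgb1bp1 had a log2 fold change of -0.04.

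The position of the step in the day differed between these genes. Means over the 6 livers of a time placed Ciart at 0.349 ± 0.194, 6.35 ± 4.98, 39.2 ± 7.52 and 17.6 ± 1.77 CPM (SD, n = 6) at ZT2, ZT6, ZT10 and ZT14, so its ZT10 level was the highest of the day. Per2 went on rising to 94.5 ± 10.7 CPM at ZT14, and Thrsp was still at 1486 ± 253 CPM at ZT18. Arntl had already dropped from 29.9 ± 3.60 CPM at ZT2 to 4.12 ± 1.65 CPM at ZT6, and its ZT10 mean of 1.03 ± 0.333 CPM was the lowest. Cldn1 also fell across these times, but more after ZT6 than before it. Its means were 132 ± 18.7, 88.5 ± 14.7 and 23.96 ± 4.58 CPM at ZT2, ZT6 and ZT10, and it recovered to 126 ± 8.13 CPM at ZT22. Por, the P450 reductase, held 716 ± 92.2 CPM at ZT10 and 730.4 ± 107 CPM at ZT14, whereas Usp2 fell back from 94.2 ± 5.95 to 54.7 ± 4.05 CPM. Fgf21 had its highest mean at ZT6, at 10.7 ± 10.8 CPM.

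**Figure D3:**
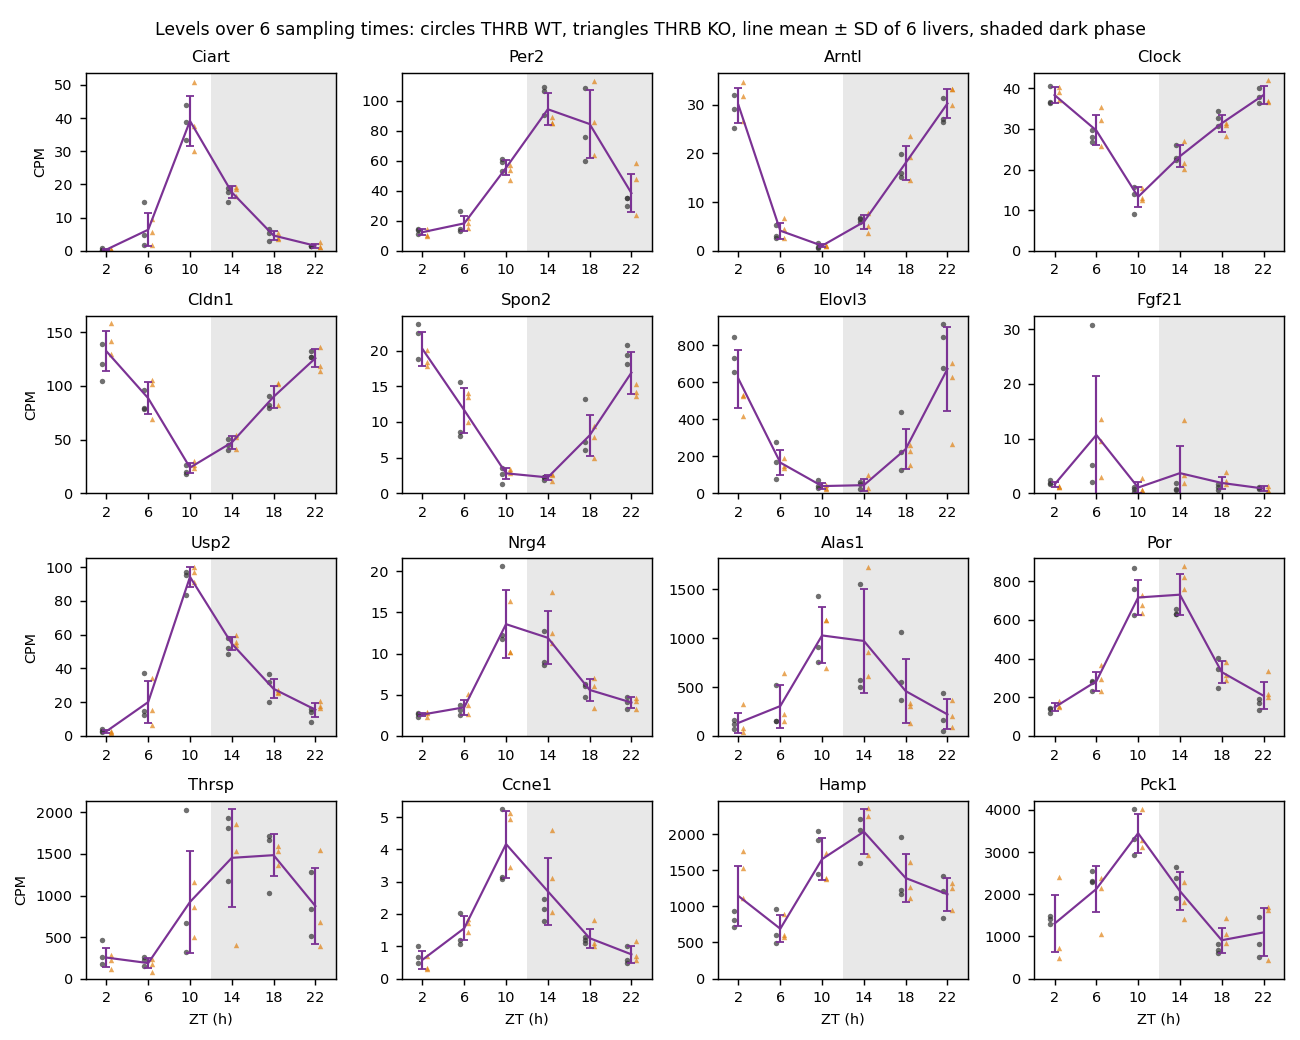
Levels in CPM (vertical axes, from 0) over 6 sampling times (horizontal axes, ZT in hours) of 16 genes, with circles for THRB WT and triangles for THRB KO livers, a line for the mean and SD of 6 livers, and shading for the dark phase. Ciart and Usp2 peak at ZT10, Arntl, Clock and Cldn1 have their trough there, and Thrsp and Hamp reach their highest means later.

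Some genes of glucose production rose. Of 13 gluconeogenesis genes, 5 were called higher, against 2.73% of all tested genes, and 0 lower, all 13 had a positive log2 fold change, and the median was 0.58. Pck1, the phosphoenolpyruvate carboxykinase that commits carbon to glucose, rose from 1047, 2302 and 2546 CPM to 2931, 3298 and 4031 CPM (log2 fold change 0.71 ± 0.17 SE, adjusted p = 0.0233). The lowest liver, THRB KO mouse b at ZT6, stood at 1047 CPM and the next at 2158 CPM. The groups did not overlap, and the call was lost without THRB WT mouse a or THRB KO mouse c of ZT10 (adjusted p up to 0.0576) and with voom and an estimated correlation (adjusted p = 0.0704). Got1, the cytosolic aspartate aminotransferase, rose from 102-169 CPM at ZT6 to 159-476 CPM at ZT10 (log2 fold change 1.04 ± 0.22 SE, adjusted p = 0.013), and Sds, serine dehydratase, from 100.4-173 CPM at ZT6 to 203-469.7 CPM at ZT10 (log2 fold change 0.95 ± 0.17 SE, adjusted p = 0.00427). Slc37a4, the glucose-6-phosphate transporter, rose by 0.62 (adjusted p = 0.00114) and Foxo1, a fasting transcription factor, by 0.51 (adjusted p = 0.00237). The 16 genes of glycolysis and insulin action had 0 called higher and 1 lower, the glycogen gene Ppp1r3c. Of 14 glycogen genes, Gys2, the liver glycogen synthase, rose from 136-282 CPM at ZT6 to 288-420.3 CPM at ZT10 (log2 fold change 0.81 ± 0.14 SE, adjusted p = 0.00335), while Ppp1r3c and the lysosomal glucosidase Gaa fell. The Gaa change was small (-0.23, adjusted p = 0.0397) and was lost in 9 of the 12 fits that left out 1 library (adjusted p up to 0.0973).

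Genes of nitrogen and methyl group handling moved in both directions. Of 25 amino acid breakdown genes, 5 rose (20%) and 3 fell (12%), against 2.73% and 2.82% of all tested genes, with a median of 0.14. Besides Sds, Prodh, which oxidizes proline, rose by 0.65 (adjusted p = 0.00271), with Aass (0.38) and Hpd (0.27), enzymes of lysine and tyrosine breakdown. Gldc, of the glycine cleavage system, fell from 168-218 CPM at ZT6 to 83.6-146 CPM at ZT10 (log2 fold change -0.71 ± 0.12 SE, adjusted p = 0.0024), with Cdo1 (-0.38) and Agxt (-0.40), enzymes of cysteine and glyoxylate. In the urea cycle all 10 genes had a positive log2 fold change and 2 were called (20%). Asl, argininosuccinate lyase, rose from 385-506 CPM at ZT6 to 673-1265 CPM at ZT10 (log2 fold change 0.90 ± 0.13 SE, adjusted p = 0.00106) and Arg1, arginase, from 989-1539 CPM at ZT6 to 1425-1975 CPM at ZT10 (0.41, adjusted p = 0.0386, lost in 9 of 12 fits without 1 library, at up to 0.095). Of 19 one-carbon and NAD genes, 3 rose (15.8%) and 2 fell (10.5%). Nampt, the rate-limiting enzyme of NAD salvage, rose from 43.7-91.7 CPM at ZT6 to 132-197 CPM at ZT10 (log2 fold change 1.29 ± 0.16 SE, adjusted p = 0.000336). Nnmt, which methylates nicotinamide, rose from 23.7-42.3 CPM at ZT6 to 52.9-184 CPM at ZT10 (log2 fold change 1.42 ± 0.26 SE, adjusted p = 0.0052), and Ahcy, which clears S-adenosylhomocysteine, rose by 0.52 (adjusted p = 0.0016). Cbs, the first enzyme of transsulfuration, was among those that fell (-0.43, adjusted p = 0.0134).

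In lipid metabolism, single genes moved and most did not pass the test. Of 17 lipogenesis genes, 3 rose (17.6%) and 1 fell (5.88%), against 2.73% and 2.82% of all tested genes, with a median of 0.13. Besides Thrsp, Elovl6, an elongase of long-chain fatty acids, rose from 46.2-102 CPM at ZT6 to 72.9-235 CPM at ZT10 (log2 fold change 1.10 ± 0.25 SE, adjusted p = 0.0197) and Srebf1, the lipogenic transcription factor SREBP1, from 197-501 CPM at ZT6 to 374-662 CPM at ZT10 (log2 fold change 0.85 ± 0.20 SE, adjusted p = 0.0212). Elovl6 missed the threshold without THRB WT mouse a of ZT10 or THRB KO mouse b of ZT6 (adjusted p up to 0.0541), and Srebf1 without THRB WT mouse a or THRB KO mouse b of ZT10 (up to 0.0548). Elovl5, an elongase of polyunsaturated fatty acids, fell from 405-573 CPM at ZT6 to 231-340.2 CPM at ZT10 (log2 fold change -0.80 ± 0.10 SE, adjusted p = 0.000311). Fasn, fatty acid synthase, had 303, 575 and 733 CPM and 355, 978 and 1398 CPM, overlapping, at an adjusted p of 0.161.

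Of 25 cholesterol synthesis genes, 2 were called, 1 in each direction (4% each, against 2.73% higher and 2.82% lower among all tested genes). Hmgcs1, the cytosolic HMG-CoA synthase, fell from 222-353 CPM at ZT6 to 107-177 CPM at ZT10 (log2 fold change -0.88 ± 0.13 SE, adjusted p = 0.00083) without overlap. Of 25 genes of fatty acid oxidation, Acot3 rose, and Fgf21 and Plin2, a coat protein of lipid droplets, fell. Plin2 moved from 309-531 CPM at ZT6 to 165-301 CPM at ZT10 (log2 fold change -0.87 ± 0.13 SE, adjusted p = 0.00153). None of the 4 ketogenesis genes passed, with a log2 fold change of -0.13 for Acat1, the mitochondrial acetoacetyl-CoA thiolase. None of 15 bile acid genes passed either. Akr1c6 (-0.03) and Scp2 (-0.08) were the most abundant, and Cyp7a1, the rate-limiting enzyme, had 21.4, 66.1 and 116 CPM at ZT6 and 76.5, 131 and 252 CPM at ZT10 (adjusted p = 0.0505). Of 10 bile transporters, Abcb11, the bile salt export pump, fell from 646-793 CPM at ZT6 to 346-603 CPM at ZT10 (log2 fold change -0.53 ± 0.11 SE, adjusted p = 0.0088), while Slc10a1 (0.05) and Slco1b2 (-0.04) did not pass.

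**Figure D4:**
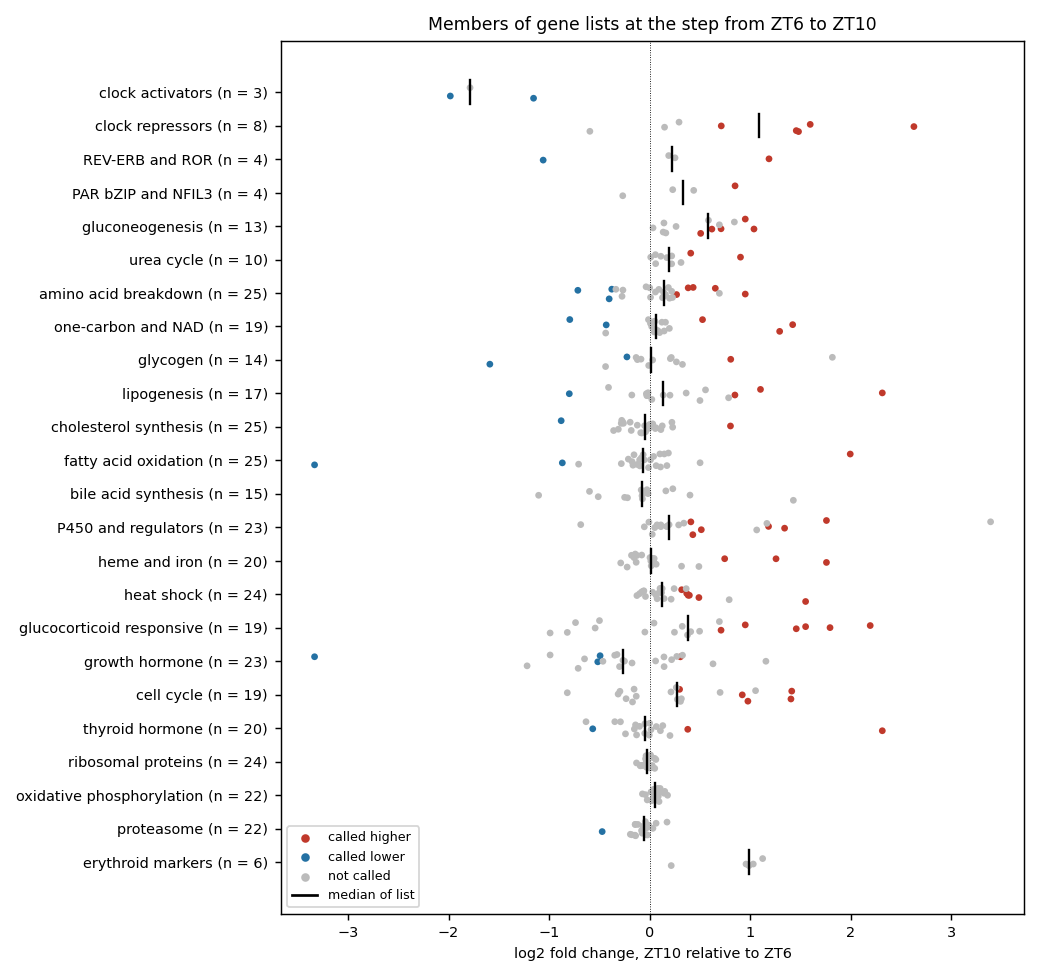
Log2 fold change from ZT6 to ZT10 (horizontal axis) of the tested members of 24 gene lists (rows), 1 point a gene, red for genes called higher, blue for genes called lower and grey for the rest, with a black line at each median. The clock repressors, gluconeogenesis and glucocorticoid responsive genes lie mostly to the right, the clock activators to the left, and the ribosomal proteins, oxidative phosphorylation and proteasome genes sit close to 0, apart from Psmd11.

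Some genes of drug and heme metabolism rose. Of 23 cytochrome P450 genes and their regulators, 6 were called higher (26.1%, against 2.73% of all tested genes) and 0 lower, with a median of 0.19. Por, which passes electrons to all microsomal P450 enzymes, had 232, 283 and 369 CPM at ZT6 and 624, 703 and 869 CPM at ZT10, a 2.53-fold increase (log2 fold change 1.34 ± 0.12 SE, adjusted p = 6.09e-05) without overlap. Cyp2a5 rose from 335-1263 CPM at ZT6 to 1020.5-1719.7 CPM at ZT10 (log2 fold change 1.18 ± 0.26 SE, adjusted p = 0.0136), with overlap, and shares sequence with close relatives, so its counts are uncertain. The nuclear receptors CAR (Nr1i3, 0.51, adjusted p = 0.0489) and PXR (Nr1i2, 0.43, adjusted p = 0.0363) and Cyp3a13 (0.41, adjusted p = 0.0118) rose with Alas1. The Nr1i3 call was lost in 10 of the 12 fits that left out 1 library (adjusted p up to 0.107). Of 25 genes of conjugation and antioxidant defence, the sulfotransferase Sult1d1 rose (0.70, adjusted p = 0.0181) and Gclc, of glutathione synthesis, fell (-0.57, adjusted p = 0.0136, and 0.0715 with pairs of letters summed). Of 20 heme and iron genes, 3 rose (15%) and 0 fell. Hamp, which encodes the iron hormone hepcidin, rose from 496-965 CPM at ZT6 to 1375-2048 CPM at ZT10 (log2 fold change 1.26 ± 0.17 SE, adjusted p = 0.000519), with no overlap, and Tfrc, the transferrin receptor, from 12.3-16.5 CPM at ZT6 to 15.2-37.6 CPM at ZT10 (log2 fold change 0.75 ± 0.16 SE, adjusted p = 0.0124), a call lost with voom and an estimated correlation (adjusted p = 0.0676). The summed level of 6 markers of red blood cells, haemoglobin genes among them, ran from 184 to 553 CPM at ZT6 and from 309.9 to 984 CPM at ZT10, with log2 fold changes of 1.12 for Hbb-bs (adjusted p = 0.0945) and 0.98 for Hba-a1 (adjusted p = 0.19). The ranges overlapped, and 0 of the 6 passed. Their part in the heme and iron values was not tested.

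Chaperones and genes that respond to glucocorticoids rose in part. Of 24 heat shock genes, 6 were called higher (25%, against 2.73% of all tested genes) and 0 lower, with a median of 0.12. Fkbp5, a cochaperone of the glucocorticoid receptor, rose from 12.7-28.3 CPM at ZT6 to 28.8-90.2 CPM at ZT10 (log2 fold change 1.55 ± 0.24 SE, adjusted p = 0.00167). The others rose less, among them Dnaja1 (0.39, adjusted p = 0.0088), Hspb8 (0.38, adjusted p = 0.0215, and 0.102 with pairs of letters summed), Hspa8 (0.37, adjusted p = 0.0397), Chordc1 (0.32, adjusted p = 0.00547) and Hsph1 (0.49, adjusted p = 0.0431, lost in 8 of 12 fits without 1 library, at up to 0.109). Both cold-inducible genes, Cirbp (-0.23) and Rbm3 (0.27), did not pass. Of 24 genes of the unfolded protein response only Dnajb9 rose (0.38, adjusted p = 0.0384, lost in 9 of 12 fits without 1 library, at up to 0.0895), while the chaperones Hspa5 (0.06) and Calr (-0.13) did not pass. Of 19 glucocorticoid responsive genes tested, 6 rose (31.6%) and 0 fell, with a median of 0.38. With voom and an estimated correlation Zbtb16 (adjusted p = 0.0666) and Pck1 (adjusted p = 0.0704) lost their calls, and with pairs of letters summed Per1 did (adjusted p = 0.181). The 6 were Lpin1, Zbtb16, Fkbp5, Per1, Sds and Pck1, all of which also stand in the clock, heat shock or glucose lists or in the list of largest changes. Tsc22d3 (0.41, adjusted p = 0.521), Dusp1 (0.32, adjusted p = 0.739) and Tat (0.69, adjusted p = 0.132), known targets of the receptor, did not pass. Of the 19, 13 had a positive and 6 a negative log2 fold change. The negative ones included Igfbp1 (-0.99, adjusted p = 0.301) and Cdkn1a (-0.82, adjusted p = 0.216), which did not pass either.

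Of 19 cell cycle genes, 5 were called higher (26.3%, against 2.73% of all tested genes) and 0 lower, with a median of 0.27. Ccne1, which encodes cyclin E1, moved from 1.08, 1.59 and 2.03 CPM to 3.08, 4.19 and 5.25 CPM (log2 fold change 1.41 ± 0.19 SE, adjusted p = 0.000695), and its paralog Ccne2 rose from 0.819-1.47 CPM at ZT6 to 1.65-2.72 CPM at ZT10 (log2 fold change 0.98 ± 0.18 SE, adjusted p = 0.00512). Ccne2 overlaps the more abundant Ints8 on the opposite strand by 5622 bases. Wee1, a mitotic inhibitor under clock control, rose from 5.13-19.8 CPM at ZT6 to 22.4-33.8 CPM at ZT10 (log2 fold change 1.40 ± 0.28 SE, adjusted p = 0.00881). Rrm2 (0.92, adjusted p = 0.0317, lost in 8 of 12 fits without 1 library, at up to 0.0753) and Pcna (0.30, adjusted p = 0.02), both of DNA synthesis, rose less. Transcripts of Ccne1 and Ccne2 were scarce, with highest ZT10 levels of 5.25 CPM and 2.72 CPM. Of 23 genes of growth hormone signalling, the IGF axis and secreted hormones, 1 rose (4.35%) and 3 fell (13.0%, against 2.82% of all tested genes). Stat5a (-0.52, adjusted p = 0.00372) and Stat5b (-0.49, adjusted p = 0.00153), the transcription factors of the growth hormone receptor, fell without overlap. The secreted hormone Fgf21, which also fell, stands in the fatty acid oxidation list too. Igfbp4, an IGF binding protein, rose by 0.30 (adjusted p = 0.0233), a call lost without THRB WT mouse a of ZT10 or THRB KO mouse b or c of ZT6 (up to 0.0646).

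Of 20 thyroid hormone genes tested, 2 rose (10%) and 1 fell (5%), against 2.73% and 2.82% of all tested genes. Thrsp was described above, Slc16a10, a transporter of thyroid hormone and aromatic amino acids, rose by 0.38 (adjusted p = 0.0429, lost in 8 of 12 fits without 1 library, at up to 0.103), and Thra, the other receptor gene, fell from 18.97-32.1 CPM at ZT6 to 13.2-18.2 CPM at ZT10 (log2 fold change -0.57 ± 0.11 SE, adjusted p = 0.00833), with the overlap with Nr1d1 given above. The log2 fold change of Thrb was -0.004 (adjusted p = 0.993) and that of Dio1, the deiodinase of the liver, -0.10 (adjusted p = 0.864). Among transcription factors of the KLF family, Klf13 (0.75, adjusted p = 0.0254) and Klf15 (0.49, adjusted p = 0.036) rose of 12, with calls lost in 5 and 8 of 12 fits without 1 library (adjusted p up to 0.0589 and 0.0936). Of 20 autophagy genes, Bnip3, a mitophagy receptor, rose (0.61, adjusted p = 0.000515), and Sqstm1 (-0.46, adjusted p = 0.00622, and 0.0546 with pairs of letters summed) and Gabarapl1 (-0.46, adjusted p = 0.0069), an adaptor and a membrane protein of autophagosomes, fell. All 3 were apart in every liver.

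Several basic programmes showed few or no calls, which in lists of this size lies near the 5.56% of all tested genes called. None of 24 ribosomal protein genes, 22 oxidative phosphorylation genes or 13 mitochondrially encoded genes passed, with medians of -0.03, 0.05 and 0.15. The log2 fold changes of their most abundant members were 0.06 for Rpl10, -0.03 for Rpl4, -0.04 for Atp5b, 0.05 for Atp5a1, 0.11 for mt-Co1 and 0.15 for mt-Cytb. Of 23 ribosome biogenesis genes 2 rose, Ncl (0.29, adjusted p = 0.0154, and 0.167 with pairs of letters summed and 0.0982 without both letter b mice of ZT6) and Utp20 (0.29, adjusted p = 0.045, lost in 9 of 12 fits without 1 library, at up to 0.111), and of 22 proteasome genes 1 fell, Psmd11 (-0.47, adjusted p = 0.000758), against -0.15 for Psmd2 and -0.07 for Psmb4. Most members of some lists shared a direction. Positive log2 fold changes were seen for 19 of 22 oxidative phosphorylation, 11 of 13 mitochondrially encoded and 19 of 23 ribosome biogenesis genes. Negative ones were seen for 19 of 22 proteasome and 16 of 24 ribosomal protein genes. An unadjusted p under 0.05 was found for 10 ribosome biogenesis and 7 proteasome genes, and for 3182 of all 17994. Of 23 secreted acute phase genes the fibrinogen chains Fga (-0.54, adjusted p = 0.0141) and Fgg (-0.45, adjusted p = 0.0146) fell, and 0 of 20 complement and coagulation genes passed (C3 -0.01, Kng1 0.09). Of 20 immediate early genes tested, Btg2 rose (0.59, adjusted p = 0.0279, lost in 7 of 12 fits without 1 library, at up to 0.0719), with Zfp36 at 0.17 and Ier2 at -0.08. Of 20 interferon genes Rsad2 fell (-1.01, adjusted p = 0.0361, lost in 7 of 12 fits without 1 library, at up to 0.0833), with B2m at 0.16 and H2-K1 at 0.15.

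Hepatocyte markers dominated every library, with summed levels of 12 genes between 83446 and 99494 CPM at ZT10 and a similar range at ZT6, where they lay between 83735 and 97807 CPM. None of the 12 passed (Alb 0.06, Apoa1 -0.19). None of the tested markers of Kupffer cells (12), endothelial cells (12), stellate cells (12), cholangiocytes (7), lymphocytes (12), neutrophils (4) or pancreas and fat (2) passed. All 12 Kupffer cell markers had a positive log2 fold change, from 0.11 to 0.91 with a median of 0.15, as did 11 of the 12 endothelial markers (median 0.18, 3 of them with an unadjusted p under 0.05), against 5 of 12 stellate, 3 of 7 cholangiocyte, 8 of 12 lymphocyte, 1 of 4 neutrophil and 0 of 2 pancreas and fat markers. The summed Kupffer cell markers ran from 278 to 469 CPM at ZT6 and from 250.2 to 509.8 CPM at ZT10, and the summed endothelial markers from 167 to 292 and from 217 to 299.6 CPM, so both overlapped. Their part in the other values was not tested. The medians of the 7 lists lay between -0.11 and 0.18, and their best expressed members were Clec4f (0.14) and Cd5l (0.20), Stab1 (0.16) and Dnase1l3 (0.10), Ecm1 (-0.05) and Dcn (0.04), Spp1 (-0.26) and Sox9 (-0.74), Ighm (0.11) and Igkc (0.12), Csf3r (-0.11) and Mmp9 (-0.10), and Cela1 (-0.12) and Cela2a (-0.08). The pericentral genes of the lobule had 0 calls of 14 (Cyp2e1 0.19, Glul 0.06), and of 13 periportal genes Sds, Pck1 and Arg1 rose, and Cdh1, the epithelial cadherin, fell from 43.8-75.8 CPM at ZT6 to 26.5-38.3 CPM at ZT10 (log2 fold change -0.90 ± 0.11 SE, adjusted p = 0.000235). The 3 that rose are enzymes of glucose and nitrogen metabolism.

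Mice that share a time and a letter deviated together, as given above. Of the 82 genes named by the rule, called and reported here, 33 lost their call in at least 1 of the 3 alternatives on letters. With pairs summed 27 did (adjusted p from 0.0546 to 0.267), with voom and an estimated correlation 17 (0.0562 to 0.135), and without both letter b mice of ZT6 22 (0.0508 to 0.224). The 11 that lost it in all 3 were Arg1, Dnajb9, Elovl6, Fbxl21, Gaa, Klf15, Nr1i3, Rrm2, Rsad2, Slc16a10 and Utp20. The other 22 were Alas1, Btg2, Ccne2, Dnaja1, Fga, Fgf21, Gclc, Got1, Hspb8, Hsph1, Igfbp4, Klf13, Ncl, Noct, Pck1, Per1, Prodh, Sqstm1, Srebf1, Sult1d1, Tfrc and Zbtb16.

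The step was then taken in each genotype alone, 3 livers against 3, from sets of mice that share no animal. For THRB WT 84 genes were called (0.467% of those tested) and for THRB KO 285 (1.58%), 57 of them in both. The interaction of step and genotype called 0 genes (0%) with edgeR, where 602 genes had an unadjusted p under 0.05 and the smallest adjusted p was 0.502, and DESeq2 called 6. The larger count in THRB KO is therefore not shown to be a larger response. Both counts rest on single libraries. The THRB WT count was 8 without mouse a or mouse b of ZT6, 25, 32 and 47 without mouse a, b or c of ZT10, and 87 without mouse c of ZT6. The THRB KO count was 85 and 122 without mouse b or c of ZT6, 150 and 117 without mouse a or c of ZT10, and 278 and 232 without the other two. With DESeq2 the counts were 470 (THRB WT) and 643 (THRB KO). Of the 84 genes called in THRB WT, 82 moved in the same direction in THRB KO, and 78 did so with an unadjusted p under 0.05, with a median log2 fold change of 0.86 in the THRB WT direction. Of the 285 called in THRB KO, 273 moved in the same direction in THRB WT, 227 with an unadjusted p under 0.05, and the median was 0.72. Over all tested genes the direction was shared by 63.4%. Mice of 1 time and letter deviated together across the genotypes, and the mouse number series fell on the same letters in both. The 2 sets are therefore not known to be independent, and the part of this in the shared direction was not tested.

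Ciart rose by 2.46 on the log2 scale in THRB WT and by 2.80 in THRB KO, and Cldn1 fell by 2.00 and 1.79. Wider gaps between genotypes were seen for Fkbp5, with log2 fold changes of 2.19 (THRB WT) and 0.92 (THRB KO) (adjusted p of the difference = 1), Lpin1, with 2.70 and 1.68 (adjusted p = 1), Nr1d1, with -1.45 and -0.67 (adjusted p = 1), and Cyp2a5, with 0.60 and 1.76 (adjusted p = 1). None of these differences passed the adjustment. Genes called in THRB KO were then looked up in the 18 THRB WT mice, which had no part in choosing them. Those of ZT6 and ZT10 share times and letters with the THRB KO mice, so the same limit holds. Of the 132 called higher, 57.6% had their highest THRB WT mean at ZT10 and 28.0% at ZT14, against 18.04% and 17.89% of all tested genes, and 52.3% had their lowest at ZT2. Of the 153 called lower, 59.5% had their lowest THRB WT mean at ZT10 and 34.0% at ZT14, against 17.99% and 18.11% of all genes, and their highest lay at ZT2 in 36.6% and at ZT22 in 35.9%.

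**Figure D5:**
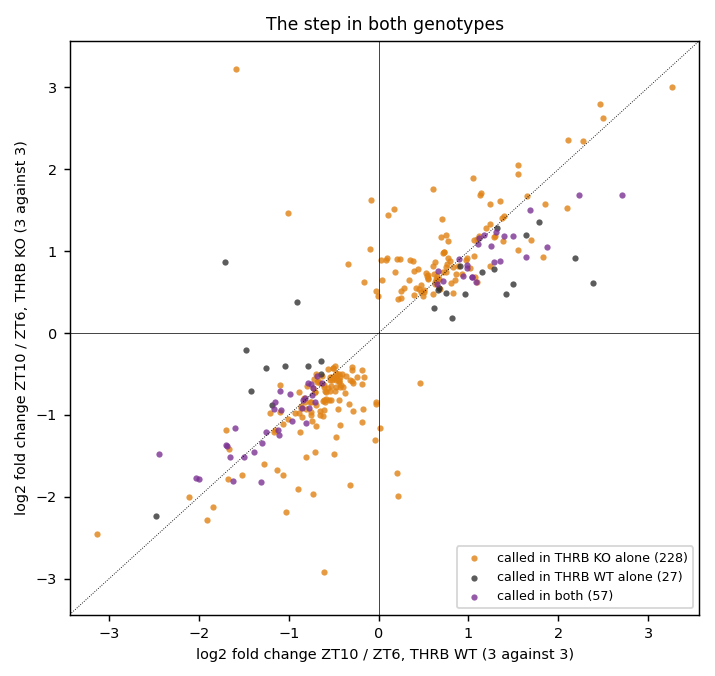
Log2 fold change from ZT6 to ZT10 in THRB KO (vertical axis) against THRB WT (horizontal axis) for the 312 genes called in either genotype, 1 point a gene, coloured by where they were called (57 in both, 228 in THRB KO alone, 27 in THRB WT alone). Most points lie in the lower left and upper right quadrants near the dotted line of equal change, and 14 of the 312 lie in the other quadrants.

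Set among the 6 steps of the day, with the same test at each, the late light step was of middle size. From ZT2 to ZT6, 9.93% of the tested genes were called (1786), and from ZT10 to ZT14, across lights off, 15.6% (2804). The steps of the dark phase called 4.04% from ZT14 to ZT18 (727) and 0.745% from ZT18 to ZT22 (134), and the step from ZT22 to ZT2 called 1.09% (197). Adjacent steps share the 6 libraries of the time between them. Mice of the highest number series were sampled only at ZT2, ZT6 and ZT10, so the mix of series changes at some steps and not at others. The part of this in the counts was not tested. The median absolute log2 fold change over all genes was 0.153 at the late light step, 0.175 at the step before it and 0.204 at the step after it. It was 0.157 from ZT14 to ZT18, a step with fewer calls, 0.135 from ZT18 to ZT22 and 0.129 from ZT22 to ZT2.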

How the data were processed

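Livers of 36 mice were sequenced, and the 12 libraries of ZT6 and ZT10 are compared here. The authors extracted RNA with Trizol, selected polyadenylated RNA, made non-directional libraries and, per the labels, used HISAT2 and featureCounts on GRCm38 (mm10). Versions, the annotation release and the treatment of reads with several matches are not given in the sources used here. The authors deposited whole-number counts per gene with no normalization or filter, beside the position and name of each gene. Genotype, sampling time and letter were taken from the sample titles.

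Genes with at least 100 counts summed over the 36 libraries were tested. TMM factors were computed over all 36 libraries and used for CPM and every fit. The step was tested with edgeR 4.0.16 (glmQLFit and glmQLFTest, R 4.3.3) on the 12 libraries with genotype as covariate, within each genotype, and with a step by genotype interaction, and adjusted by the Benjamini-Hochberg procedure at 0.05. DESeq2 1.42.0 and limma 3.58.1 gave alternatives, as did other filters, scalings, covariates and the removal of each library in turn. The script was tested on simulated data. P-values measure the spread between these livers, each from 1 mouse. Totals of 29279652 to 39913574 counts limit the precision for scarce genes.

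Named genes were the 10 largest increases and decreases among called genes with a mean of at least 5 CPM and no overlap of ZT6 and ZT10 within either genotype, all clock genes, up to 4 called members of each other list (or, with fewer than 2 called, the 2 most abundant), Thrb, and genes called in the interaction; further members of a list, and genes said to be outside the rule, were named after their values were seen. Some named genes are not reported here. The comparison and the gene lists were chosen with earlier results of these data known.

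The main fits did not use the letters to pair ZT6 with ZT10 mice, and the labels do not say whether they do. Deviations of same-lettered ZT6 and ZT10 mice of 1 genotype correlated across genes at -0.125 to 0.129. Control and knockout mice of 1 time and letter correlated at 0.086 to 0.346, and the labels do not say what they share. Promoter windows were taken from RefSeq, and 105 of the 144 named genes matched by symbol.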

Additional observations from a re-analysis of the deposited data

Results flagged for a closer look

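Each of 138 named genes was screened at ZT6 and at ZT10 for a liver far from the other 5 on the log2 scale (gap to the nearest liver divided by the whole range above Dixon's 95% critical value for 6 values). This flagged 10 of 276 sets of 6 livers, where chance flags about 1 in 20. THRB WT mouse b at ZT6 gave 4 of the 10. It was far below the others for Tsku, at 15.1 CPM with the next liver at 64.3 CPM (0.739 of the range), and for Cyp2e1, at 5426 CPM (0.771), and above the others for Psmd11, at 159.7 CPM (0.786) and Spp1, at 54.4 CPM (0.707). Without this mouse Tsku kept an adjusted p of 0.00023 and Psmd11 of 0.000994.

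THRB KO mouse b at ZT6 was the lowest for Pck1, at 1047 CPM with the next at 2158 CPM (0.814), and without it Pck1 had an adjusted p of 0.00669. THRB WT mouse c at ZT10 was the highest for Nampt, at 197 CPM (0.717), and the lowest for Spon2, at 1.27 CPM (0.726). THRB WT mouse a at ZT10 was the highest for Sds, at 469.7 CPM (0.64). At ZT6, THRB KO mouse a was the highest for Clec4f, at 107 CPM (0.655), and THRB WT mouse a was the lowest for Dcn, at 47.7 CPM (0.637). None of the 138 genes moved in opposite directions in the 2 genotypes with all livers apart. Rpl30-ps10, a pseudogene singled out after its values were seen, did. In THRB WT it went from 6.19-8.53 CPM at ZT6 to 0.869-5.34 CPM at ZT10 (log2 fold change -1.59), and in THRB KO from 0.564-1.03 CPM to 6.77-9.53 CPM (3.22), a difference of 4.81 (THRB KO minus THRB WT) whose adjusted p was 0.502 with edgeR. The livers concerned are given under the other observations.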

How the results depend on the processing

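The count of genes called at the step stayed within 1.5 times of 1000 with DESeq2 (1422), no filter (1166), at least 500 counts (1044), all 36 libraries in the fit (1434), robust estimation (998), DESeq2 size factors (1000) and series as covariate (824). It ranged from 720 to 916 with 1 library left out. It was 233 within the highest mouse number series, 181 within the lower numbers, 402 with pairs of 1 time and letter summed, 642 with voom and 538 without both letter b mice of ZT6. These last alternatives hold fewer libraries or, for voom, a correlation of 0.22 within pairs, and the 3 on letters were chosen after the data were seen. With a replicate block by genotype and letter 800 genes were called, 739 of them among the 1000, and with a block by letter 1089. With the block by letter the THRB WT count was 56 and the THRB KO count 339. The letters are not known to pair the mice of ZT6 with those of ZT10.

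The interaction count was 0 with size factors, with the stricter filter and with the replicate block, and ranged from 0 to 3 with 1 library left out. The 3, without THRB WT mouse c of ZT10, were Rpl30, Polr2k and Rpl30-ps10. DESeq2 called 6, namely Gm12191, Cpq, Polr2k, Rpl30-ps10, Cyp2d41-ps and Mup-ps4. The cause was not tested, and the counts of the pseudogenes among them are uncertain. DESeq2 gave 470 calls in THRB WT, where leaving out 1 library gave 8 to 87, and 643 in THRB KO, where it gave 85 to 278. Of 144 named genes, 86 were called, and 0 of these reversed under any of 26 alternatives a gene. Of the 86, 67 kept their call with each library left out, and 16 kept it under every alternative. Depth limits scarce genes such as Npas2, at most 1.34 CPM in these livers.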

Other observations

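Some genes differed between livers in a way that neither time nor genotype alone followed, and they were singled out after their values were seen. The noncoding Gm43305 (GRCm38 chr14:54292443-54297456) was above 1 CPM in 12 of all 36 livers, from 1.54 to 109 CPM, and at most 0.346 CPM in the others. Cebpe (chr14:54710360-54712174), which encodes a transcription factor of granulocytes and lies 412903 bases away on the same strand, was above 1 CPM in 14 of the 36 livers, at 3.22 to 9.97 CPM, and at most 0.0682 CPM in the others. All 12 livers with Gm43305 were among the 14 with Cebpe. Of the 14, 4 were THRB WT and 10 THRB KO. Thrb, the altered gene, lies on the same chromosome, with a promoter window at chr14:17660710-17661009. Whether the split by genotype relates to that locus was not tested. At ZT10 the livers concerned were THRB WT mice a and b and THRB KO mouse b, with 8.30, 8.10 and 7.93 CPM of Cebpe, and at ZT6 there were none. The positive log2 fold changes of both genes in the late light step rest on these 3 livers.

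The ribosomal protein gene Rpl30 (chr15:34440505-34443640) behaved in a like way. It was at 5.47 and 6.50 CPM in THRB KO mice a and b of ZT6 and at 4.06 and 4.19 CPM in THRB WT mice a and b of ZT10, at 27.5 CPM in THRB KO mouse c of ZT6, and between 51.3 and 92.7 CPM in the other 7 livers. Polr2k, an RNA polymerase subunit gene (chr15:36174010-36177010), was between 2.03 and 3.83 CPM in the same 5 livers and between 7.14 and 11.4 CPM in the other 7. Cpq, a carboxypeptidase gene on the same chromosome (chr15:33083129-33594552), ran from 29.9 to 33.4 CPM in the 5 and from 35.1 to 49.3 CPM in the 7. The pseudogene Rpl30-ps10, on chromosome X, was between 0.564 and 1.03 CPM in the 5 and between 5.34 and 9.53 CPM in the 7. Gm12191, on chromosome 11, was the reverse, at 87.8 to 109.4 CPM in the 5 and 56.8 to 74.5 CPM in the 7. Within THRB KO, the ZT6 and ZT10 livers did not overlap for Rpl30, Polr2k, Cpq, Rpl30-ps10 or Gm12191. Polr2k, Cpq, Rpl30-ps10 and Gm12191 are 4 of the 6 genes that DESeq2 called in the interaction of step and genotype. What the 5 livers have in common was not tested, and reads shared between Rpl30 and its pseudogene cannot be told apart here.

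Among scarce genes below the 5 CPM limit for named genes, Dhrs9, a retinol dehydrogenase relative, fell from 2.29, 2.77 and 7.19 CPM (lowest, median and highest of 6 livers) at ZT6 to 0.155, 0.441 and 0.905 CPM at ZT10 (log2 fold change -2.79 ± 0.38 SE, adjusted p = 0.000689), with no overlap.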
